A study of Mus musculus with 16 samples.

Results

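The solute carriers are membrane proteins that move amino acids, sugars, nucleosides, ions, metals, vitamins and metabolites across the cell surface and across the membranes of organelles, and gene symbols that start with Slc and a number name them. This group of genes was followed in mouse CD4 T cells, the helper lineage of T lymphocytes, through the first day of culture, and in cells with and without the protein kinase Erk2, which relays signals from the T cell receptor. All genes whose annotated symbol has that form were taken, except the glucose carriers Slc2a1 and Slc2a3. The array carried 324 such genes on 472 probes. Of these, 199 genes had a probe that passed background on 2 or more of the 16 arrays and were the members described here, each on its brightest probe, while the other 125 were not above background often enough to be measured. The 199 members stood among 9800 measured genes, and 117 of them were above background on all 16 arrays and 36 on fewer than 8.

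A resting T cell takes up few nutrients, and an activated one builds protein, nucleotides and membrane before it divides. Amino acid carriers at the cell surface supply leucine and glutamine, nucleoside carriers salvage bases, and zinc, iron and copper carriers load metal enzymes. The mitochondrial carriers, the Slc25 family, exchange metabolites, nucleotides and phosphate across the inner mitochondrial membrane. Ion exchangers and cotransporters of the Slc4, Slc9 and Slc12 families set pH and cell volume.

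The samples were Erk2-deficient (KO) and wild-type (WT) CD4 T cells of strain C57/BL6, with 1 Illumina bead array for each of 8 conditions in each genotype. The conditions were uncultured control cells at day 0, Th0 cultures (activation without polarization) and iTreg cultures (induced regulatory T cells) at 3 hr, and at day 1 Th0, Th0 with TGF for 1 hr, Th0 with TGF for 3 hr, Th1 (the interferon gamma-producing lineage) and iTreg cultures. How Erk2 was removed, the age of the mice, whether animals were pooled and the amounts of antibody and cytokine are not stated in the labels. Every group was 1 array, so the spread behind each test is the disagreement between genotype pairs within a stage, with 5 residual degrees of freedom, and it may be technical. All levels below are log2 intensities after background correction and quantile normalization, all differences are log2 differences, and an adjusted p under 0.05 in limma over 14501 probes counted as passing the test.

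Some properties of the arrays bear on the results. Day 0, both 3 hr cultures and day 1 Th0 shared 1 chip and the remaining cultures shared another, so that chip and culture cannot be told apart where day 1 Th0 is compared with them, and KO and WT alternated along both chips. The day 0 pair went against its labels for a genotype-marking gene: Gdpd3 read 6.63 on the array labelled KO and 10.12 on the array labelled WT at day 0, but 9.48 and 9.31 on the KO arrays and 6.74 and 6.63 on the WT arrays at 3 hr. The day 0 genotype labels were therefore not relied on, and day 0 entered the time comparisons only as the mean of both arrays. The KO day 1 iTreg array stood apart, at 17.2 on a first principal component (71.7% of the variance) on which the other day 1 arrays lay between 30 and 35.1. Of the T cell markers, 7 of 7 measured were above background on all arrays, and their sum was 36638 to 39402 intensity units at day 0, 32302 to 39495 at 3 hr and 17066 to 25754 at day 1. Of 8 CD8 and NK cell markers, Cd8b1, Klrd1 and Nkg7 were above background on all 16 arrays, Klrb1c on 10, Gzma and Klrk1 on 2 each and Cd8a and Ncr1 on 0. Summed myeloid markers ranged from 3077 to 4148 intensity units at day 0, from 1735 to 3349 at 3 hr and from 738 to 1153 at day 1.

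In the first 3 hr of culture 95 of the 199 members passed the test, 55 higher and 40 lower than at day 0, or 47.7% of members against a background of 51.8% of all measured genes (25.1% higher and 26.7% lower). The members' median difference was 0.06, against 0.01 over all genes. Between 3 hr and day 1 in Th0 cultures 95 again passed, but 40 were higher and 55 lower, where the background was 56.3% (27.8% higher and 28.5% lower). Day 1 Th0 cells differed from day 0 cells in 100 members, 51 higher and 49 lower, with a background of 61.5% (30.9% higher and 30.6% lower). The share of members that passed was below the background in these 3 comparisons, a difference that was not tested, and the account below is of which carriers moved. By class, nucleoside and nucleotide carriers gave 12 higher and 5 lower of 27 at 3 hr against day 0. Amino acid carriers gave 2 higher and 11 lower of 35 between 3 hr and day 1. Their share of falls thus lay near the background of 28.5%, while their share of rises lay below that of 27.8%. Differences of classes from the background were not tested. The nucleoside and nucleotide class was set by family number and took in Slc23, Slc28, Slc29, Slc35 and Slc17a9. Most of its members were of the Slc35 family, and those of Slc23 were placed there by number alone. Its counts therefore do not describe the nucleoside carriers alone. Mitochondrial carriers gave 9 higher and 7 lower of 31 at 3 hr, and 11 higher and 7 lower from 3 hr to day 1. In a bulk sample, fewer cells of a type and less RNA per cell cannot be told apart.

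**Figure D1:**
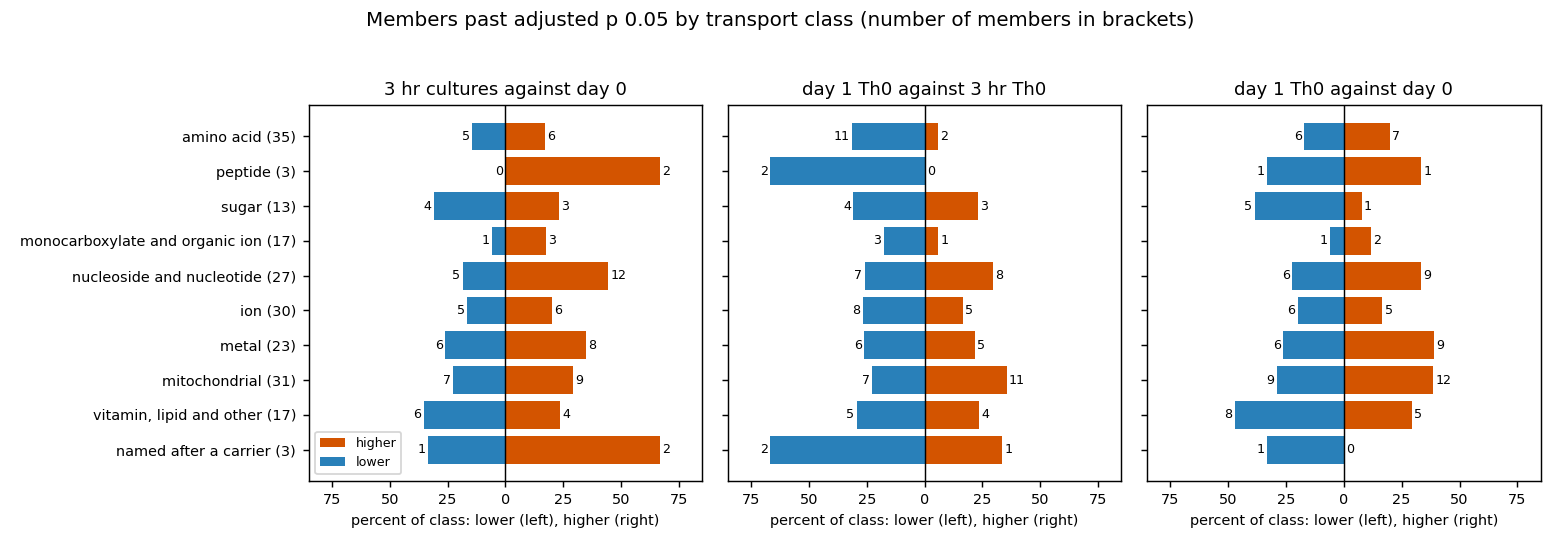
Percent of each transport class past adjusted p 0.05, higher to the right and lower to the left, for 3 time comparisons, with counts at the bar ends and class sizes in brackets. The nucleoside and nucleotide class, most of it the Slc35 family, has 12 higher and 5 lower at 3 hr against day 0. Over all measured genes 25.1% were higher and 26.7% lower there. The amino acid class has 2 higher and 11 lower at day 1 Th0 against 3 hr Th0, where 27.8% of all measured genes were higher and 28.5% lower.

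Among the surface amino acid carriers, Slc7a5, the light chain of the large neutral amino acid transporter that imports leucine, rose early and remained high. Its level was 10.78 (labelled KO) and 10.77 (labelled WT) at day 0. At 3 hr it was 11.91 (KO) and 12.09 (WT) in Th0 and 11.95 (KO) and 12.25 (WT) in iTreg cultures, and at day 1 it was 12.16 (KO) and 12.20 (WT) in Th0 cultures. Every cultured array lay above both day 0 arrays. The difference at 3 hr was 1.28 ± 0.09 (SE, adjusted p = 6.188e-09), and the further difference of 0.18 between 3 hr and day 1 Th0 did not pass the test. Slc3a2, the heavy chain that Slc7a5 needs at the surface, rose by 0.57 ± 0.10 at 3 hr and fell by 0.54 ± 0.11 between 3 hr and day 1 Th0. The same rise and fall held for Slc1a5, a glutamine carrier (0.67, then −0.43) and Slc7a6, an exchanger of cationic for neutral amino acids (0.73, then −0.32). Slc7a1, the cationic amino acid carrier, was above background only on the 4 arrays at 3 hr, where it was at least 1.19-fold higher than at day 0, and it was at least 1.17-fold lower at day 1 Th0 than at 3 hr. These bounds take the dimmest level counted as above background for the dim group. The second step was not stable to the arrays used: without 1 or another array of the 3 hr or day 1 Th0 pairs the falls of Slc1a5, Slc7a6 and Slc7a1 no longer passed, and that of Slc1a5 shrank to −0.01 without one of them.

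Slc38a2 and Slc38a5, sodium-coupled carriers of small neutral amino acids and of glutamine, moved the other way. Slc38a2 stood at 13.58 (labelled KO) and 13.75 (labelled WT) at day 0. At 3 hr it stood at 11.94 (KO) and 11.77 (WT) in Th0 and at 11.74 (KO) and 11.87 (WT) in iTreg cultures, and at day 1 Th0 at 10.50 (KO) and 10.49 (WT). The 3 stages did not overlap, and Slc38a2 fell by 1.83 ± 0.08 at 3 hr and fell by 3.16 ± 0.09 at day 1 Th0 against day 0 (adjusted p = 8.973e-14), the largest fall among the members in that comparison. A second Slc38a2 probe gave −1.29 and −1.83 for the same comparisons. Slc38a5 stood at 8.63 (labelled KO) and 8.53 (labelled WT) at day 0, at 7.56 (KO) and 7.80 (WT) in 3 hr Th0 and 7.30 (KO) and 7.73 (WT) in 3 hr iTreg cultures, and at 5.96 (KO) and 6.0 (WT) in day 1 Th0 cultures. It was not above background at day 1 Th0, where it was at least 4.85-fold lower than at day 0 and at least 2.60-fold lower than at 3 hr.

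The nucleoside carriers took different courses: Slc29a1 rose and stayed high, Slc29a3 was high at 3 hr alone, and Slc28a2 and Slc17a9 fell. Slc29a1, the equilibrative nucleoside transporter of the plasma membrane, stood at 8.09 (labelled KO) and 8.05 (labelled WT) at day 0, at 8.98 (KO) and 9.39 (WT) in 3 hr Th0 and 9.04 (KO) and 9.52 (WT) in 3 hr iTreg cultures, and at 9.80 (KO) and 9.88 (WT) in day 1 Th0 cultures. It rose by 1.16 ± 0.09 at 3 hr and by a further 0.65 ± 0.11 between 3 hr and day 1 Th0. Slc29a3, its relative of lysosomes and other internal membranes, stood at 8.20 (labelled KO) and 8.07 (labelled WT) at day 0, at 8.96 (KO) and 9.41 (WT) in 3 hr Th0 and 9.01 (KO) and 9.40 (WT) in 3 hr iTreg cultures, and at 7.65 (KO) and 7.78 (WT) in day 1 Th0 cultures. The 4 arrays at 3 hr thus lay above all others, with a rise of 1.06 ± 0.08 at 3 hr and a fall of 1.47 ± 0.09 after it (adjusted p = 7.185e-10). Slc29a2, a further equilibrative carrier, named here after its values were seen, had smaller rises of 0.28 ± 0.09 at 3 hr and 0.38 ± 0.11 at day 1 Th0 against day 0, which were lost without any of 3 arrays and without the WT day 1 Th0 array. Slc28a2, a sodium-driven importer of purine nucleosides, fell by 1.08 ± 0.12 at 3 hr and by 1.62 ± 0.14 at day 1 Th0 against day 0. Slc17a9, the carrier that loads nucleotides into vesicles, fell by 1.17 ± 0.09 at 3 hr.

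The Slc35 family includes nucleotide sugar carriers, which feed sugar donors into the Golgi and the endoplasmic reticulum. Slc35b4 rose by 0.87 ± 0.09 between 3 hr and day 1 Th0. Slc35g1, placed here by its family number alone, rose by 1.26 ± 0.10 at day 1 Th0 against day 0. Slc35b3, which carries the sulfate donor PAPS into the Golgi, fell by 1.28 ± 0.10 at day 1 Th0 against day 0 on its brightest probe, and a second probe gave −1.30. The other Slc35b3 probe rose by 0.23, past the test, so its probes disagreed. Slc35a1 and Slc35b1 had small rises of 0.26 each at 3 hr, which did not pass with cyclic loess or with the series matrix values.

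**Figure D2:**
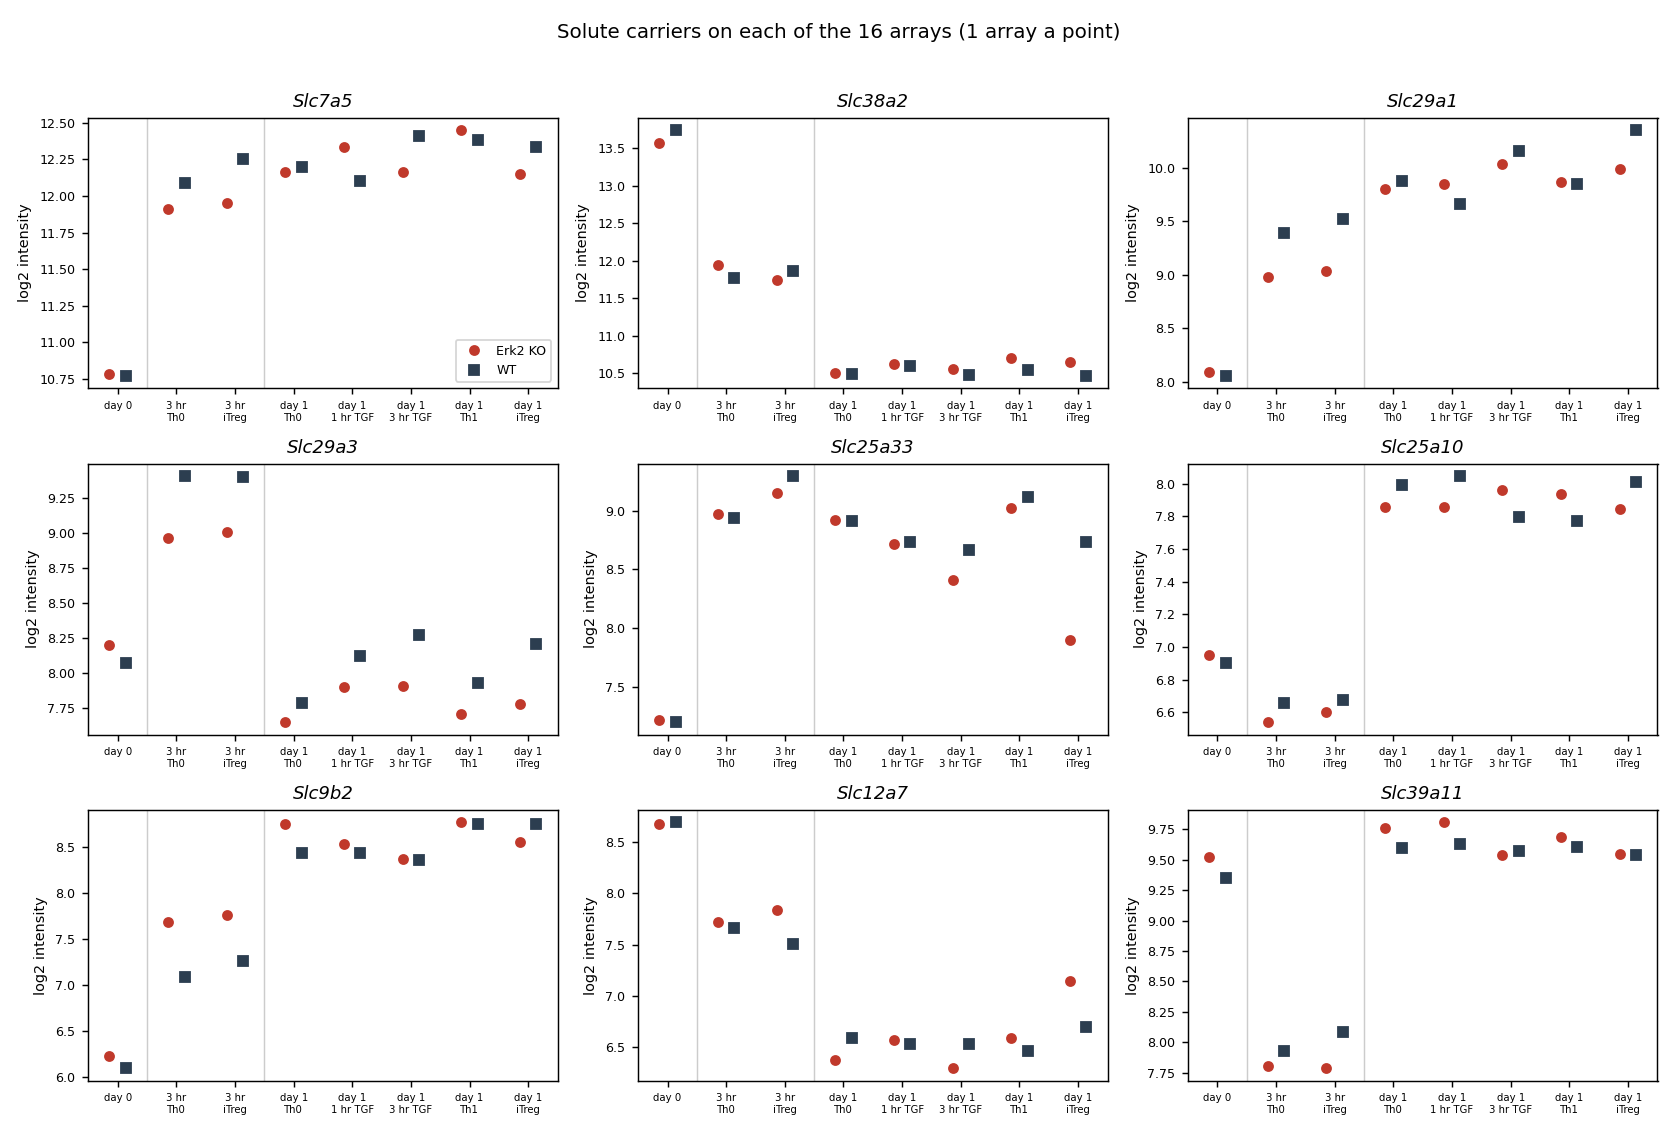
Log2 intensity of 9 members on each of the 16 arrays, with KO as circles left of WT as squares and grey lines between day 0, 3 hr and day 1. Slc38a2 falls in 2 steps, with its 3 hr arrays at 11.74 to 11.94 and its day 1 Th0 arrays at 10.49 and 10.50, Slc29a3 and Slc39a11 have their extremes at 3 hr, and day 0 carries the genotypes as labelled.

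In the mitochondrial class the pyrimidine nucleotide carrier Slc25a33 had the largest early rise of all members. It stood at 7.21 (labelled KO) and 7.20 (labelled WT) at day 0, at 8.97 (KO) and 8.94 (WT) in 3 hr Th0 and 9.15 (KO) and 9.29 (WT) in 3 hr iTreg cultures, and at 8.92 (KO) and 8.91 (WT) in day 1 Th0 cultures. The rise at 3 hr was 1.88 ± 0.13 (adjusted p = 3.137e-09), and the difference of −0.04 between 3 hr and day 1 Th0 did not pass the test. Slc25a1, the citrate carrier that exports acetyl units for lipid synthesis, rose in both steps, by 0.91 ± 0.08 and 0.51 ± 0.09. Slc25a15, the ornithine carrier, rose by 0.48 and then by 0.66, and Slc25a32, a carrier of folate, rose by 0.55 at 3 hr.

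Other mitochondrial carriers rose in the second step, reversed between the steps or fell. The dicarboxylate carrier Slc25a10 stood at 6.95 (labelled KO) and 6.90 (labelled WT) at day 0, at 6.54 (KO) and 6.66 (WT) in 3 hr Th0 and 6.60 (KO) and 6.67 (WT) in 3 hr iTreg cultures, and at 7.86 (KO) and 7.99 (WT) in day 1 Th0 cultures. It fell by 0.31 ± 0.09 at 3 hr, which did not pass without the array labelled KO at day 0, and rose by 1.33 ± 0.10 after it. Slc25a39, which carries glutathione into mitochondria, rose by 1.07 ± 0.09 between 3 hr and day 1 Th0. Slc25a13, the aspartate-glutamate carrier citrin, was at least 1.39-fold higher at day 1 Th0 than at 3 hr, where its Th0 arrays were not above background. Its paralogue Slc25a12 instead fell by 0.91 ± 0.08 at 3 hr and rose by 0.44 ± 0.09 after it. Slc25a20, which imports acylcarnitines for fat oxidation, rose by 0.63 ± 0.08 at 3 hr and fell by 0.88 ± 0.10 by day 1 Th0. Slc25a45 fell by 1.48 ± 0.11 at 3 hr. The phosphate carrier Slc25a3 had a rise of 0.32 at 3 hr, which did not pass with cyclic loess, and its probes disagreed in the second step.

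Among the ion carriers, the sodium-proton exchanger Slc9b2 and the potassium-chloride cotransporter Slc12a7 changed most. Slc9b2 stood at 6.23 (labelled KO) and 6.09 (labelled WT) at day 0, not above background, at 7.69 (KO) and 7.09 (WT) in 3 hr Th0 and 7.76 (KO) and 7.27 (WT) in 3 hr iTreg cultures, and at 8.76 (KO) and 8.44 (WT) in day 1 Th0 cultures. It was at least 2.21-fold higher at 3 hr and at least 4.89-fold higher at day 1 Th0 than at day 0 (adjusted p = 6.75e-12). Slc12a7 stood at 8.68 (labelled KO) and 8.70 (labelled WT) at day 0, at 7.72 (KO) and 7.66 (WT) in 3 hr Th0 and 7.83 (KO) and 7.51 (WT) in 3 hr iTreg cultures, and at 6.38 (KO) and 6.59 (WT) in day 1 Th0 cultures. It fell by 1.01 ± 0.12 and then by 1.20 ± 0.13, while Slc12a2, the cotransporter that brings sodium, potassium and chloride into cells, rose by 0.57 ± 0.09 and then by 0.60 ± 0.11. Slc9a9, an endosomal sodium-proton exchanger, fell by 0.71 ± 0.09 at 3 hr. Slc4a2, an exchanger of chloride for bicarbonate, rose by 0.31 at 3 hr and fell by 0.69 after it. Slc4a1, the anion exchanger of red cells, was at least 1.92-fold lower at day 1 Th0 than at day 0, and the other 2 measured red cell markers fell with it. The red cell marker sum, which includes Slc4a1, was 5213 (labelled KO) and 768 (labelled WT) at day 0 and 203 to 534 at day 1. Within the day 0 pair and both 3 hr pairs, Slc4a1 was lower on the array where the red cell gene Hba-a1 was higher. At day 0 Slc4a1 stood at 7.13 and Hba-a1 at 12.28 (labelled KO), and at 7.34 and 9.07 (labelled WT). In 3 hr Th0 cultures they stood at 7.22 and 8.99 (KO) and at 6.79 and 12.45 (WT), and in 3 hr iTreg cultures at 6.94 and 8.99 (KO) and at 6.8 and 12.42 (WT). The part of red cells in the Slc4a1 result was not tested.

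Metal carriers included both zinc importers of the Slc39 family and metal exporters. Slc39a11 stood at 9.52 (labelled KO) and 9.35 (labelled WT) at day 0, at 7.81 (KO) and 7.93 (WT) in 3 hr Th0 and 7.79 (KO) and 8.09 (WT) in 3 hr iTreg cultures, and at 9.76 (KO) and 9.60 (WT) in day 1 Th0 cultures. The fall of 1.54 ± 0.08 at 3 hr was followed by a rise of 1.81 ± 0.09, the largest among the members in that step. Slc39a4 went the other way, with a rise of 1.32 ± 0.09 and a fall of 0.60 ± 0.10, and Slc39a6 rose by 1.14 ± 0.10 at 3 hr. Slc39a10 rose by 0.86 ± 0.11 between 3 hr and day 1 Th0. The zinc exporter Slc30a1 stood at 9.70 (labelled KO) and 9.30 (labelled WT) at day 0, at 9.07 (KO) and 9.10 (WT) in 3 hr Th0 and 8.96 (KO) and 9.17 (WT) in 3 hr iTreg cultures, and at 7.56 (KO) and 7.70 (WT) in day 1 Th0 cultures. Its fall was 0.42 ± 0.08 at 3 hr and 1.46 ± 0.10 after it.

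For iron and copper, Slc40a1, the iron exporter ferroportin, was not above background at day 1 Th0 and was at least 3.23-fold lower there than at day 0. Slc31a1, the copper importer, rose by 0.95 ± 0.09 at 3 hr and by 1.53 ± 0.10 at day 1 Th0 against day 0. Slc11a2, a proton-coupled importer of ferrous iron, fell by 0.52 at 3 hr, and Slc11a1, its relative of phagosomes, rose by 0.60 ± 0.10 on its brightest probe, while a second Slc11a1 probe gave 0.07 and did not pass. Slc11a1 is best known from macrophages, and summed myeloid markers lay at 1735 to 3349 at 3 hr and at 3077 to 4148 at day 0. Their part in its value was not tested.

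Vitamin carriers were among the largest rises. Slc19a1, the reduced folate carrier, stood at 8.70 (labelled KO) and 8.62 (labelled WT) at day 0, at 9.66 (KO) and 9.87 (WT) in 3 hr Th0 and 9.69 (KO) and 10.06 (WT) in 3 hr iTreg cultures, and at 10.63 (KO) and 10.71 (WT) in day 1 Th0 cultures, and the 3 stages did not overlap. It rose by 2.01 ± 0.10 at day 1 Th0 against day 0, and the thiamine carrier Slc19a2 by 1.46 ± 0.10. Slc5a6, the sodium-dependent carrier of biotin and pantothenate, rose by 1.43 ± 0.08 at 3 hr and fell by 0.67 ± 0.09 after it. Slc10a3, a member of the bile acid carrier family, rose by 1.15 ± 0.08 and fell by 1.12 ± 0.09, so that day 1 Th0 and day 0 differed by −0.04, which did not pass. Slc46a3, a lysosomal carrier, and Slc44a2, of the choline-like family, fell by 2.12 ± 0.10 and 1.71 ± 0.12 at day 1 Th0 against day 0. The peptide carrier Slc15a2 fell by 1.52 ± 0.09 between 3 hr and day 1 Th0. Slc9a3r1, a scaffold protein named after the exchanger it binds and not itself a carrier, fell by 1.30 ± 0.08 at 3 hr.

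Other genes of the same pathways were read on lists of their own. Of 18 measured genes of the amino acid response, the program driven by the transcription factor Atf4, 6 were higher and 7 lower at 3 hr than at day 0, and 10 were higher and 2 lower at day 1 Th0 than at 3 hr (median 0.29, against 0.01 over all genes). Atf4 itself fell by 0.77 ± 0.08 and Ddit4 fell by 1.82 ± 0.08 at 3 hr, and the serine synthesis genes Phgdh and Psat1 rose by 2.16 ± 0.10 and 2.01 ± 0.11 between 3 hr and day 1 Th0. Over all measured genes the shares that passed were 51.8% and 56.3%, against 72.2% and 66.7% of this list. Of 10 other mitochondrial transport genes, 2 were higher and 2 lower at 3 hr, and 8 were higher and 1 lower at day 1 Th0 than at 3 hr (median 0.77), led by the serine carrier Sfxn1 (1.49) and the outer membrane channel Vdac1 (1.30). Of 15 ion pumps and channels, 4 were higher and 6 lower at 3 hr and 2 higher and 8 lower after it, with Orai1, the pore of the store-operated calcium channel, up by 2.46 ± 0.08 and then down (−1.92 ± 0.10). Of 12 genes of lysosomal amino acid sensing by mTORC1, 7 were higher and 3 lower at 3 hr, and 3 higher and 5 lower after it. Of 18 ABC transporters, 1 was higher and 9 lower at 3 hr, and 5 were higher and 7 lower after it. The shares that passed in the 2 steps were 40% and 90% of the mitochondrial list and 66.7% and 66.7% of the ion list. They were 83.3% and 66.7% of the mTORC1 list and 55.6% and 66.7% of the ABC transporters. The background was 51.8% (25.1% higher and 26.7% lower) at 3 hr and 56.3% (27.8% higher and 28.5% lower) after it. The differences of these lists from the background were not tested.

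Promoter sequences bear on these changes only as a description. RefSeq promoter windows of 300 bases, from 250 before to 50 after a start site (GRCm38.p6), matched 156 of the 199 members. The E-box CACGTG, which reads the same on both strands and is bound by factors such as Myc, was present in 26 of them (16.7%). It was present in 11.5% of 8018 measured genes and in 8.09% of all 27025 genes with a window. A gene counted if any of its windows held the motif. Among members higher at 3 hr than at day 0 it was present in 7 of 40, among lower ones in 6 of 32 and among those that did not pass in 13 of 84. For day 1 Th0 against day 0 it was present in 10 of 39 higher, 8 of 41 lower and 8 of 76 other members. The Egr motif GCGTGGGCG, on either strand, was present in 5 members (3.21%), against 1.38% of measured genes and 0.707% of all genes. It was found in 4 of the 40 higher members, in 0 of the 32 lower ones and in 1 of 84 others, and for day 1 Th0 against day 0 in 5 of 39 higher, 0 of 41 lower and 0 of 76 other members. The amino acid response core TGATGNAA, on either strand, was present in 8 members (5.13%), against 3.29% of measured genes and 4.51% of all genes. At 3 hr it was present in 0 of 40 higher, 4 of 32 lower and 4 of 84 other members. For day 1 Th0 against day 0 these were 1 of 39, 4 of 41 and 3 of 76. These splits were not tested. Shown here are the 250 bases before the start site of the members among the largest changes at 3 hr or day 1 Th0 with an E-box there, 3 that rose and 2 that fell, with motif matches in capitals. The coordinates are chr4:149774268-149774517 (minus strand) for Slc25a33, chr17:45595247-45595496 (minus strand) for Slc29a1, chr16:17928220-17928469 (minus strand) for Slc25a1, chr13:73763447-73763696 (plus strand) for Slc12a7 and chrX:8271131-8271380 (plus strand) for Slc38a5.
Slc25a33: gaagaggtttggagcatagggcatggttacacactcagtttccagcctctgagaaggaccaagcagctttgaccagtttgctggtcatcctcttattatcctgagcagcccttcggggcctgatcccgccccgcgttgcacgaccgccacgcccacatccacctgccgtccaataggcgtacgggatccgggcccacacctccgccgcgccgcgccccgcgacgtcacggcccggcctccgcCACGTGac
Slc29a1: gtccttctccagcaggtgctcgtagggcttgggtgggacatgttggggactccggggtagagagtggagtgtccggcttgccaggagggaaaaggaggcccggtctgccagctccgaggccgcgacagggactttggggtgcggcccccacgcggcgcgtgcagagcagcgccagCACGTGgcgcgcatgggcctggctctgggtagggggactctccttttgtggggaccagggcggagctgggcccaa
Slc25a1: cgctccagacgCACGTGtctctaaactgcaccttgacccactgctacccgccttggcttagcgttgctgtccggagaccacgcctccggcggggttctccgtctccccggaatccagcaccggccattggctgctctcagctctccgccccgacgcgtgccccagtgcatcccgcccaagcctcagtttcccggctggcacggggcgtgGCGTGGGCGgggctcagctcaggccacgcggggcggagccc
Slc12a7: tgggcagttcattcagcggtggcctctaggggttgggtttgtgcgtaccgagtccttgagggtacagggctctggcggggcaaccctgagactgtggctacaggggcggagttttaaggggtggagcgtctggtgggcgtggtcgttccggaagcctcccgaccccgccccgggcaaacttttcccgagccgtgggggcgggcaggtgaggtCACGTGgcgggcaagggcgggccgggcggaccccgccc
Slc38a5: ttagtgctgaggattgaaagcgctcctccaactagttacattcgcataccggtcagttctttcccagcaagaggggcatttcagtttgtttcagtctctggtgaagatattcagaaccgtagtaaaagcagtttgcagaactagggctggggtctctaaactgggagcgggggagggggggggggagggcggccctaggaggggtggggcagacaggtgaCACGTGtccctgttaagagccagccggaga
The E-box began 8 bases before the start site in Slc25a33, 75 in Slc29a1, 239 in Slc25a1, 38 in Slc12a7 and 30 in Slc38a5, and the second match in Slc25a1 is the Egr motif. These members were chosen for an E-box in this window, out of 29 largest changes, of which 23 had a promoter. They therefore do not tell how common the E-box is among carriers that rose or fell.

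At 3 hr the iTreg and Th0 cultures were compared within the first chip. No member passed the test in limma, where 8 did at an unadjusted p under 0.05, and no measured gene passed (background 0%).

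At day 1 the culture changed few carriers, and Slc2a6 the most. Slc2a6, a hexose carrier of lysosomes, stood at 8.94 (KO) and 9.0 (WT) in iTreg cultures, at 6.64 (KO) and 6.79 (WT) in Th1 cultures, at 7.75 (KO) and 7.82 (WT) with 3 hr of TGF, at 7.61 (KO) and 7.60 (WT) with 1 hr of TGF and at 7.45 (KO) and 7.73 (WT) in Th0 cultures. The iTreg arrays lay above and the Th1 arrays below every other day 1 array. Slc2a6 was higher in iTreg than in Th1 cultures by 2.25 ± 0.09 (adjusted p = 8.089e-11), within 1 chip, higher than with 3 hr of TGF by 1.18 ± 0.09, also within 1 chip, and higher than in Th0 cultures by 1.38 ± 0.09, across chips. Between Th1 and Th0 cultures, across chips, it differed by −0.87 ± 0.09 (adjusted p = 0.0001131). These calls for Slc2a6 held under every alternative run and without each array of the groups compared in turn.

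Between iTreg and Th1 cultures 17 members passed, 11 higher and 6 lower (8.54% of members, background 12.6%, with 6.73% higher and 5.88% lower), and between iTreg and Th0 cultures 11 passed, 8 higher and 3 lower (background 9.33%, with 4.95% higher and 4.38% lower). Slc15a3, a lysosomal carrier of peptides and histidine, stood at 7.23 (KO) and 7.63 (WT) in iTreg, 6.20 (KO) and 6.52 (WT) in Th1 and 6.47 (KO) and 6.51 (WT) in Th0 cultures, and was higher in iTreg than in Th1 cultures by 1.07 ± 0.10 and than in Th0 cultures by 0.94 ± 0.10. Slc39a4 stood at 8.58 (KO) and 8.35 (WT) in iTreg, 7.72 (KO) and 7.85 (WT) in Th1 and 7.79 (KO) and 7.93 (WT) in Th0 cultures, with differences of 0.67 ± 0.10 from Th1 and 0.60 ± 0.10 from Th0. For both genes the iTreg arrays lay above all Th1 and Th0 arrays, while the Th1 and Th0 arrays overlapped. Slc17a9 was higher in iTreg than in Th1 cultures by 0.65 ± 0.10, Slc25a45 by 0.63 ± 0.12 and Slc9a3r1 by 0.55 ± 0.09. The smaller rises in iTreg against Th1 cultures were those of Slc31a2, a copper carrier (0.46), the zinc importer Slc39a8 (0.41), the proton-coupled folate carrier Slc46a1 (at least 1.15-fold, Th1 not above background), Slc4a8, a sodium-bicarbonate carrier (0.33), and Slc25a12 (0.30). Of 6 CD8 and NK cell markers, Nkg7 was higher (0.97) and Cd8b1 lower (−0.93) in iTreg than in Th1 cultures, and of 7 myeloid markers S100a8 (1.13), S100a9 (0.66) and Lyz1 (0.43) were higher, and their part in these differences was not tested.

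Several carriers that were lower in iTreg cultures rested on the KO iTreg array. Slc25a33 stood at 7.89 (KO) and 8.74 (WT) in iTreg, 9.02 (KO) and 9.12 (WT) in Th1 and 8.92 (KO) and 8.91 (WT) in Th0 cultures, with differences of −0.75 ± 0.15 from Th1 and −0.60 ± 0.15 from Th0. Without the KO iTreg array these Slc25a33 differences were −0.38, still past the test, and −0.23, no longer past it. Slc39a10 stood at 6.90 (KO) and 7.15 (WT) in iTreg, 7.74 (KO) and 7.75 (WT) in Th1 and 7.49 (KO) and 7.34 (WT) in Th0 cultures, and its difference from Th1 of −0.72 ± 0.11 was −0.60 without that array and still passed. Against Th1, Slc30a1 (−0.42), Slc19a2 (−0.44) and Slc25a32 (−0.39) were also lower, and these 3 calls were lost without it, while that of Slc4a1, at least 1.31-fold lower in iTreg cultures and not above background there, was not. Against Th0 all 3 lower calls, those of Slc25a33, Slc30a1 and Slc39a10, were lost without it, as was the higher call of Slc17a9. The call of Slc25a33 against Th1 was also lost without the KO Th1 array. Leaving out the KO iTreg array gave 16 members against Th1 and 16 against Th0, and leaving out the WT iTreg array gave 30 and 20.

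**Figure D3:**
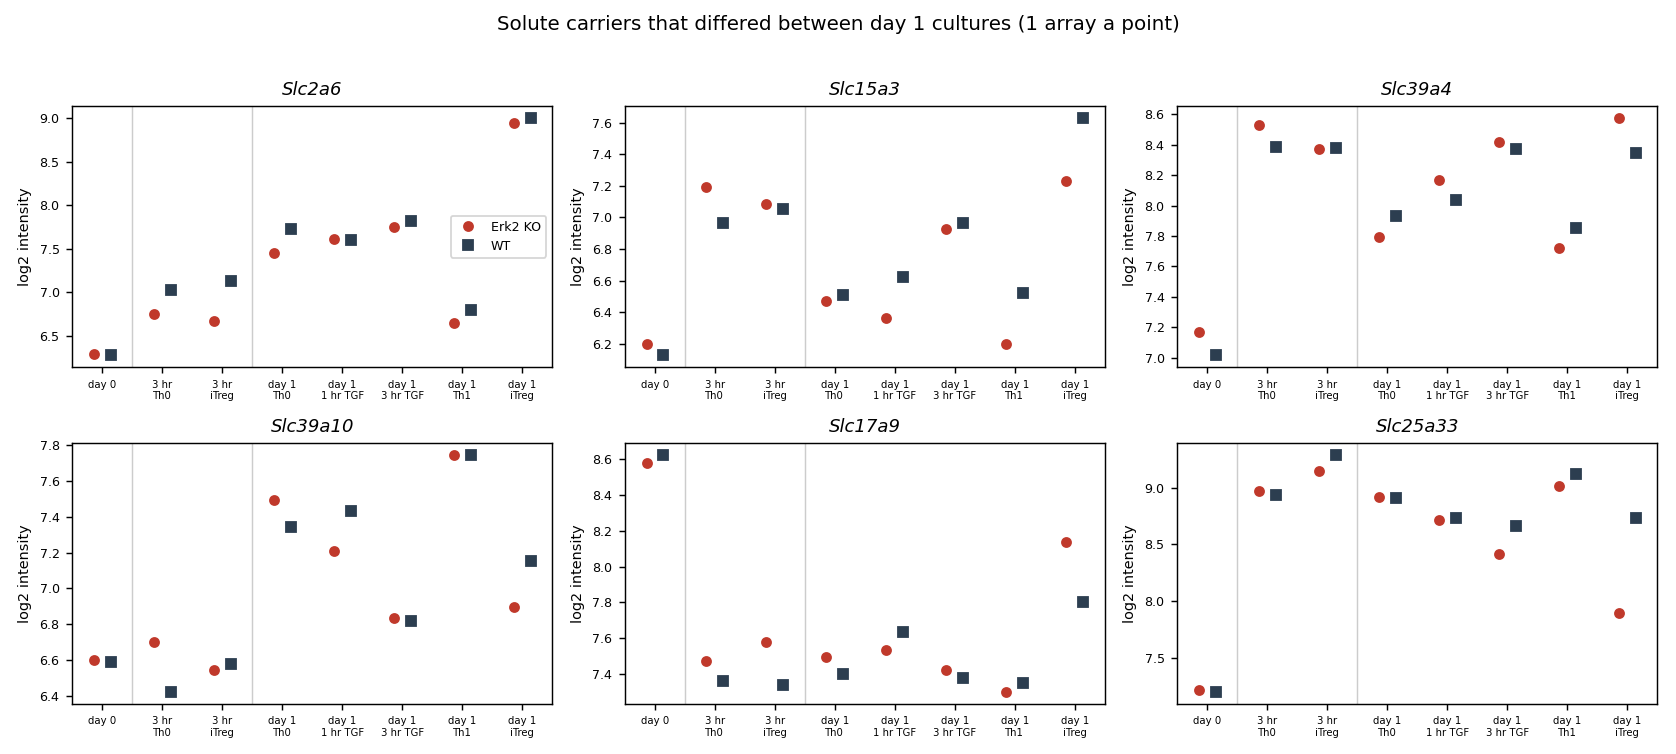
Log2 intensity of 6 members that differed between day 1 cultures on each of the 16 arrays, with KO as circles left of WT as squares. The Slc2a6 arrays of iTreg cultures, at 8.94 and 9.0, lie above all others, Slc39a10 lies at 6.82 and 6.83 with 3 hr of TGF, and Slc25a33 on the KO iTreg array, at 7.89, lies below all other cultured arrays.

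Between Th1 and Th0 cultures, across chips, 3 members passed (1 higher and 2 lower, or 1.51% of members, background 0.531%, with 0.224% higher and 0.306% lower). Beside Slc2a6 these were Slc35b4 (−0.46 ± 0.09) and Slc4a1, at least 1.32-fold higher in Th1 with Th0 not above background, and both calls were lost without any 1 of the 4 arrays involved.

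The series with TGF added late to Th0 cells gave day 1 cells with 0, 1 and 3 hr of TGF. Slc39a10 stood at 7.49 (KO) and 7.34 (WT) without TGF, at 7.21 (KO) and 7.43 (WT) with 1 hr and at 6.83 (KO) and 6.82 (WT) with 3 hr. Slc39a4 stood at 7.79 (KO) and 7.93 (WT), 8.17 (KO) and 8.04 (WT), and 8.42 (KO) and 8.37 (WT) at these times. Slc15a3 stood at 6.47 (KO) and 6.51 (WT), 6.37 (KO) and 6.62 (WT), and 6.93 (KO) and 6.97 (WT). For all 3 genes the 3 hr arrays lay outside the range of the other 4. These genes are among those that passed with 3 hr of TGF against Th0 on the same arrays, so this adds no separate support. The share of all genes with such a gap was not counted.

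With 3 hr of TGF against Th0, across chips, 5 members passed (2.51%, background 2.41%, with 1.59% higher and 0.816% lower): Slc39a10 was lower (−0.59 ± 0.11), and Slc39a4 (0.53 ± 0.10), Slc15a3 (0.46 ± 0.10), Slc29a3 (0.37 ± 0.09) and Slc9a3r1 (0.37 ± 0.09) were higher. Between 3 and 1 hr, within 1 chip, no member passed in limma, 22 did at an unadjusted p under 0.05, and the background was 0.633% (0.449% higher and 0.184% lower). Full iTreg cultures against 3 hr of TGF, within 1 chip, differed in 10 members, 7 higher and 3 lower (5.03%, background 7.82%, with 3.8% higher and 4.02% lower). Besides Slc2a6, Slc17a9 (0.57 ± 0.10) and Slc15a3 (0.48 ± 0.10) were higher in iTreg cultures, and Slc19a2 (−0.59 ± 0.10), Slc3a2 (−0.54 ± 0.11) and Slc11a1 (−0.51 ± 0.12) were lower. The calls of Slc39a10 and Slc39a4 with 3 hr of TGF were lost without 3 of the 4 arrays involved and those of Slc15a3, Slc29a3 and Slc9a3r1 without any of the 4, and without the day 1 iTreg pair 16 members passed in that comparison.

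At 3 hr 5 members differed between KO and WT, 1 higher and 4 lower (2.51%, background 3.65%, with 1.37% higher and 2.29% lower). The labels do not give the animals behind the pairs, so these tests may not measure the spread between animals. Slc9b2 was higher in KO cells, at 7.69 and 7.76 on the KO arrays and 7.09 and 7.27 on the WT arrays of Th0 and iTreg cultures (0.54 ± 0.11, adjusted p = 0.00726). Of the equilibrative nucleoside carriers, Slc29a1 and Slc29a3 were lower in KO cells. Slc29a1 stood at 8.98 and 9.04 on the KO arrays and 9.39 and 9.52 on the WT arrays (−0.45 ± 0.11, adjusted p = 0.0319), and Slc29a3 at 8.96 and 9.01 on the KO arrays and 9.41 and 9.40 on the WT arrays (−0.42 ± 0.09, adjusted p = 0.01733). Slc29a2 stood at 6.60 and 6.74 on the KO arrays and 6.73 and 6.72 on the WT arrays, which overlapped. Slc25a20 (−0.47 ± 0.10) and Slc2a6 (−0.36 ± 0.09) were also lower in KO cells. The red cell marker sum at 3 hr was 708 and 719 on the KO arrays and 5719 and 5821 on the WT arrays, and the myeloid sum 1735 and 1842 on the KO arrays and 2770 and 3349 on the WT arrays. Of 9 B cell markers, Cd74, H2-Aa and H2-Ab1 were lower in KO cells at 3 hr. The B cell sum was 1046 and 1053 on the KO arrays and 1246 and 1264 on the WT arrays. Their part in these differences was not tested. No 3 hr call was made when day 0 was pooled with 3 hr, where the labels conflict, or when chip replaced condition, and leaving out single 3 hr arrays gave 0 to 2 calls.

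Over the 5 day 1 pairs 10 members differed between genotypes, 5 in each direction (5.03%, background 6.97%, with 3.76% higher and 3.21% lower). The pairs may be cultures of the same KO and the same WT cells, since the labels do not give the animals. Erk2 loss and a difference between cell preparations then cannot be told apart. Slc25a12, the aspartate-glutamate carrier of the malate-aspartate shuttle, was higher in KO than in WT cells in 5 of 5 pairs: by 0.24 in Th0, 0.33 with 1 hr of TGF, 0.39 with 3 hr of TGF, 0.36 in Th1 and 0.41 in iTreg cultures (0.35 ± 0.06, adjusted p = 0.001322). Slc19a2, the thiamine carrier, was lower in KO cells in 5 of 5 pairs, with differences of −0.39, −0.27, −0.50, −0.35 and −0.68 in the same order (−0.44 ± 0.07, adjusted p = 0.0005849). The scaffold gene Slc9a3r1 was higher in KO cells in 5 of 5 pairs (0.28 ± 0.06). These 3 calls were kept without each day 1 array in turn and lost when chip replaced condition in the model, and that of Slc9a3r1 also on the second chip alone. Markers of other cells differed between genotypes at day 1 as well: of 7 myeloid markers tested S100a8 (0.71) and S100a9 (0.42) were higher and Lyz1 (−0.60) and Lyz2 (−0.35) lower in KO cells, of 6 CD8 and NK cell markers Nkg7 (0.78) and Klrd1 (0.32) were higher, and of 3 red cell markers Hba-a1 (−1.78) was lower. Of 9 B cell markers, Cd74 was higher and H2-Aa and H2-Ab1 were lower in KO cells. The B cell sum was 1043 to 1190 on the KO arrays and 1016 to 1158 on the WT arrays. The myeloid sum was 788 to 1153 on the KO arrays and 738 to 937 on the WT arrays, the CD8 and NK sum 1793 to 2587 on the KO arrays and 1553 to 2035 on the WT arrays, and the red cell sum 203 to 386 on the KO arrays and 461 to 534 on the WT arrays. Their part in the day 1 differences was not tested.

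Slc29a3, lower in KO cells at 3 hr, was also lower in 5 of 5 day 1 pairs (−0.27 ± 0.06, adjusted p = 0.009603). Slc11a1, the phagosome gene, differed by −0.35 ± 0.08 on its brightest probe, while its second probe gave −0.10 and did not pass. Of the myeloid markers that passed at day 1, Lyz1 and Lyz2 went in the same direction as Slc11a1 and S100a8 and S100a9 in the other. The calls of Slc29a3 and Slc11a1 were lost without either array of the pair with 3 hr of TGF. Slc20a2, a sodium-phosphate cotransporter, was lower in KO cells (−0.23 ± 0.06), but its call was lost without any of 8 arrays. It was the only one of the 10 whose KO and WT day 1 arrays did not overlap. Its pair with 1 hr of TGF differed by only −0.025, and the share of all genes without such overlap was not counted. The folate carrier Slc19a1 (−0.26 ± 0.06) was lower, and Slc25a45 (0.32 ± 0.08), Slc35b4 (0.22 ± 0.06) and the iron importer Slc11a2 (0.20 ± 0.06) were higher in KO cells, with calls lost without at least 4 of 10 arrays each. For Slc29a1, Slc9b2 and Slc25a20 the day 1 pairs differed in sign, and the difference in genotype effect between day 1 and 3 hr passed the test in limma for no member (24 at an unadjusted p under 0.05, background 1.28%, with 1% higher and 0.276% lower).

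**Figure D4:**
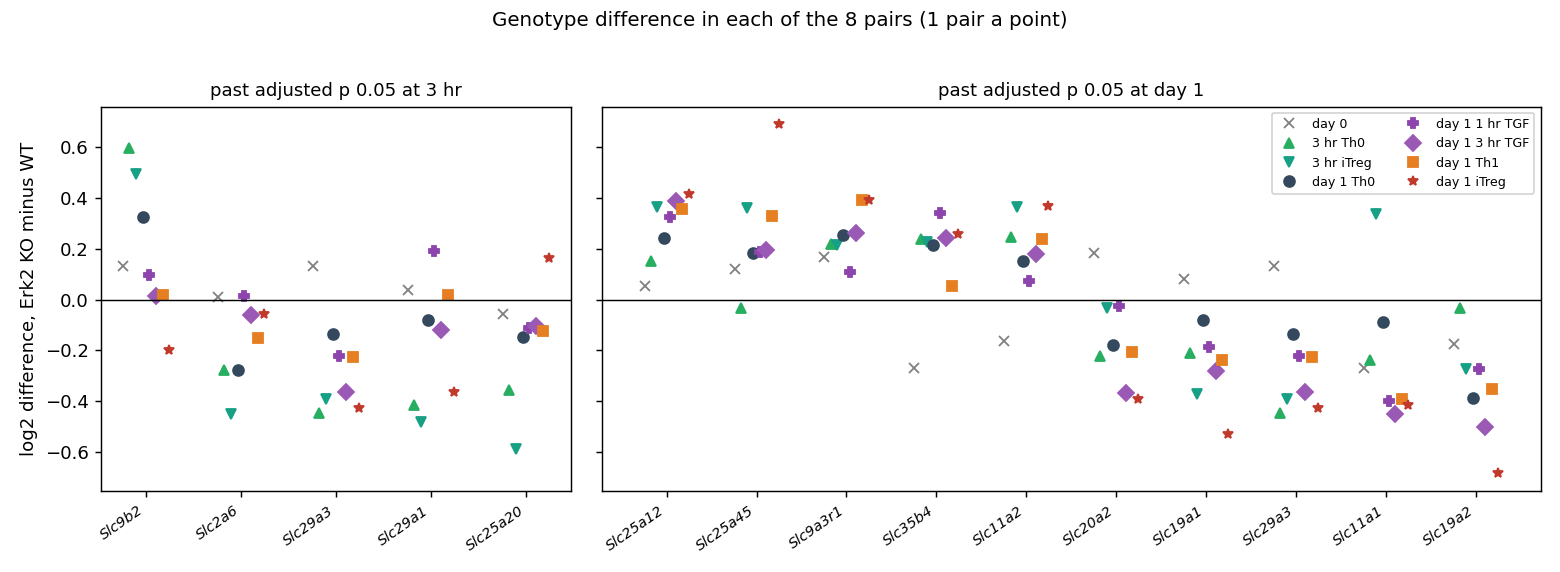
Log2 difference, KO minus WT, in each of the 8 pairs for the 5 members past adjusted p 0.05 at 3 hr and the 10 at day 1, with 1 symbol per pair and day 0 as labelled. All 5 day 1 pairs of Slc25a12 lie above 0 and all 5 of Slc19a2 and Slc29a3 below it, and the iTreg pair of Slc25a45 lies at 0.69.

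The day 1 iTreg pair differed most between genotypes. In that pair 11 members were at least 0.5 apart, 3 higher and 8 lower in KO, against 0 or 1 member in each of the other 4 day 1 pairs, and 690 of 9800 genes against 90 to 152. Its members divided by their course in time. Of the 14 members at least 2-fold higher at day 1 Th0 than at day 0, 13 were lower in KO than in WT iTreg cells (median −0.26), and in the other day 1 pairs 7 to 11 were lower (medians −0.10 to −0.02). Of all 889 measured genes that rose this much, 85.4% were lower in KO iTreg cells, and 55.3% to 59.7% in the other pairs. Of the 15 members at least 2-fold lower at day 1 Th0, 12 were higher in KO iTreg cells (median 0.24), and in the other pairs 8 to 10 were higher (medians 0.01 to 0.06), against 84.8% and 58.9% to 62.5% of all 957 measured genes that fell this much. Examples were Slc25a33 at 7.89 (KO) and 8.74 (WT), Slc19a2 at 8.73 (KO) and 9.41 (WT), Slc44a2 at 11.26 (KO) and 10.55 (WT) and Slc28a2 at 7.13 (KO) and 6.48 (WT). On the KO iTreg array these 4 carriers thus lay nearer to their day 0 levels than on the WT iTreg array. Markers differed in the same pair, in both directions. S100a8 stood at 8.71 (KO) and 7.52 (WT), S100a9 at 7.32 (KO) and 6.41 (WT) and Klrd1 at 8.19 (KO) and 7.47 (WT). Other myeloid markers were lower in KO: Lyz1 at 7.16 (KO) and 7.77 (WT), Lyz2 at 6.25 (KO) and 6.6 (WT) and Fcer1g at 6.1 (KO) and 6.44 (WT). The myeloid sum was 1153 (KO) and 937 (WT). The T cell marker sum was 25754 (KO) and 17066 (WT) and the CD8 and NK sum 2587 (KO) and 1840 (WT). Their part was not tested. With 1 array per group this difference has no replicate and no test, and the array and its culture cannot be told apart.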

How the data were processed

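Members, classes and gene lists were chosen with earlier results of these data known. The deposited table used here gives raw Illumina probe intensity on a linear scale, without detection p-values. The deposited series matrix gives intensity that the authors normalized, how is not stated. Neither scanner software nor its background setting is stated in the labels. Each of the 16 arrays had its highest log2 correlation with its own series matrix column, and these deposited intensity values were used, as log2, as an alternative. Per the labels' protocols, RNA was extracted with Trizol, cleaned up on columns and labelled with biotin.

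The platform annotation gives 1 symbol for 23978 of 25697 probes and none for 1719. In limma 3.58.1 (R 4.3.3) intensities went through normexp with an offset of 50, quantile normalization and a log2 transform. A probe was above background on an array past the 99th percentile of a normal curve fitted to the values below the array's mode. Between 12172 and 12636 probes passed per array, median intensity was 62.58 to 71.09, and 14501 probes, those above background on at least 2 arrays, were tested. A member was read on its brightest kept probe, and 43 members had several.

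The model held 8 condition means and a genotype effect at day 0, 3 hr and day 1. Tests were moderated in limma with Benjamini-Hochberg adjustment, and the code was tested on simulated data. Background shares are the percent of 9800 genes, each on its brightest probe, that passed. Members named are the 10 largest rises and falls of each comparison past the threshold and a list of carriers with known roles. Slc9a3r1, Slc4a1ap and Slc7a6os match the symbol rule but are named after a carrier, and formed a class of their own. The alternatives were no background correction, offset 16, median scaling, cyclic loess, the series matrix, other filters (none, or at least 8 arrays), another prior, array weights, other genotype terms, chip as a block, any probe per gene, and leaving out pairs or single arrays. The number of arrays limits the precision.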

Additional observations from a re-analysis of the deposited data

Results flagged for a closer look

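In 14 members called between genotypes, the difference KO minus WT was compared across the 5 day 1 pairs, and in 3 of them 1 pair lay far from the other 4. Chance alone sets 1 pair apart in about 1 in 20 such groups. Slc11a1 differed by −0.0892 in the day 1 Th0 pair, which lay on the first chip, against −0.4488 to −0.3905 in the other pairs, on the second. Slc25a20 differed by 0.1645 in the day 1 iTreg pair, against −0.1466 to −0.1043 in the others. Slc25a45 differed by 0.6904 in the day 1 iTreg pair, against 0.1832 to 0.3284 in the others. Both iTreg values involve the KO array that stood apart on the first principal component, whose part was not tested.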

How the results depend on the processing

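On its brightest probe, no named member that passed the test changed direction under the alternatives run. Read on any probe, another probe passed in the opposite direction for Slc35b3 at 3 hr and at day 1 Th0 against day 0, for Slc22a5 at day 1 Th0 against day 0 and for Slc25a3 at day 1 Th0 against 3 hr Th0. Of the named differences that did not pass, that of Slc25a33 at day 1 Th0 against 3 hr Th0 (−0.04) was 0.0703 with median scaling and −0.1927 to 0.1154 without 1 array, and that of Slc10a3 at day 1 Th0 against day 0 (−0.04) was 0.1617 with median scaling. The counts of members called at 3 hr against day 0, at day 1 Th0 against 3 hr Th0 and against day 0, and in iTreg against Th0 or Th1 cultures stayed within 1.5 times under every processing alternative run. For 3 hr of TGF against Th0 (5 members called) the count was 3 with offset 16, 2 with median scaling, 12 with array weights, 2 with 1 genotype effect over all conditions and 16 without the day 1 iTreg pair. For 3 hr against 1 hr of TGF (0) it was 1 without background correction, 1 with cyclic loess, 1 without a filter, 3 with a trended robust prior, 4 with array weights and 7 without the iTreg pair. For iTreg against 3 hr of TGF (10) it was 6 with array weights, and for Th1 against Th0 (3) it was 1 with 1 genotype effect. For the genotype at 3 hr (5) it was 2 with offset 16, 1 with median scaling, 0 with day 0 pooled in, 0 with chip in place of condition and 13 without the iTreg pair. For the genotype at day 1 (10) it was 5 with offset 16, 5 with day 0 and 3 hr pooled, 5 on the second chip alone and 0 with chip in place of condition, a model with fewer terms. For the difference between these 2 effects (0) it was 2 without the iTreg pair. The cause of these shifts was not tested. Leaving out each array in turn gave 76 to 93 calls at 3 hr against day 0, 77 to 79 at day 1 Th0 against 3 hr Th0, 86 to 93 against day 0, 0 to 0 for 3 hr iTreg against Th0, 1 to 1 for Th1 against Th0, 6 to 20 for iTreg against Th0, 8 to 30 against Th1, 3 to 20 against 3 hr of TGF, 0 to 2 for 3 hr of TGF against Th0, 0 to 0 against 1 hr, 0 to 2 for the genotype at 3 hr, 3 to 8 at day 1 and 0 to 2 for their difference. The 3 highest counts in iTreg comparisons, 20, 30 and 20, came without the WT iTreg array, where the remaining array of the pair is assumed to vary like the other groups. The model already sets KO against WT within each condition, and no block by replicate number could be added, since each group holds 1 array and the labels give no such numbers. Members near background, such as Slc4a1 and Slc46a1, have differences that intensity over background limits.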
